A study of Mus musculus with 9 samples.

Results

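Medulloblastoma tissue from mice labelled Ptch1KO was compared with non-tumour cerebellum from mice labelled SufuKO, both at postnatal day 13. The samples were chosen by their labels alone: the 3 arrays of Ptch1KO_mb and the 3 arrays of SufuKO_cb, which are 6 of the 9 arrays of the series. The remaining 3 arrays, of wildtype cerebellum at the same age, are given beside the values for reference. Dissected tissue was frozen, its total RNA was biotin-labelled, and the arrays were Affymetrix Mouse Gene 1.0 ST, whose probe sets summarise probes lying along a gene. The labels give no strain, no Cre driver or transgene and no deleted exons for either mutant, and nothing in them ties the 3 samples of a group to different animals. The p-values below are therefore set against the scatter among these samples alone, part of which may be technical. Tissue (tumour or cerebellum) and genotype (Ptch1KO or SufuKO) changed together, so their shares in any difference cannot be told apart.

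Ptch1 is the receptor for Hedgehog ligands. Without ligand it holds the membrane protein Smo inactive, and once Smo is released the Gli transcription factors switch on target genes. Sufu acts below Smo, where it binds the Gli proteins and restrains them, so that Ptch1 and Sufu are both brakes on the same pathway at different heights. In the young cerebellum, Hedgehog ligand from Purkinje cells keeps granule neuron progenitors dividing in the outer layer until they leave the cycle, migrate inward and mature, and medulloblastoma of the Hedgehog class arises from these progenitors.

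All 9 arrays had similar distributions, with medians between 6.72 and 6.79 on the log2 scale. On the first principal component, which carried 77.5% of the variance, the Sufu KO arrays lay between -2.8 and 0.87, and tumour replicates 1 and 2 lay at 41.3 and 39.9. Tumour replicate 3 lay at 26.1, nearer to Sufu KO. Xist, the RNA of the inactive X chromosome, was high on 1 of 3 arrays in each mutant group and on all 3 wildtype arrays. Cerebellar markers were high in both mutant groups: the granule lineage factor gene Zic1 read 12.10 to 12.27 in Sufu KO and 11.97 to 12.05 in the tumours, and Neurod1 12.04 to 12.31 and 11.86 to 12.09. Only 3 arrays per group limit the precision of every value below. In RNA from whole tissue, fewer cells of a type and less RNA per cell cannot be told apart.

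Of 16323 genes tested, 1991 (12.2%) were higher in the tumours and 2855 (17.5%) were lower, by limma's moderated test with a Benjamini-Hochberg adjusted p under 0.05. These calls were mostly small, with a median absolute log2 difference of 0.41 among called genes. At least 1 log2 unit, a doubling, separated the groups for 123 called genes (0.754%) that were higher and for 184 (1.13%) that were lower. The 3 tumour arrays did not overlap the 3 Sufu KO arrays for 6479 genes (39.7%). The median log2 difference of all genes tested was -0.008. Tumour replicate 3 bore on the larger differences: without it 208 genes were higher and 275 lower by at least 1 log2 unit, and 2288 and 2834 genes were called. Of the calls with all arrays, 1891 higher and 2647 lower ones were shared with the set without it.

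**Figure D1:**
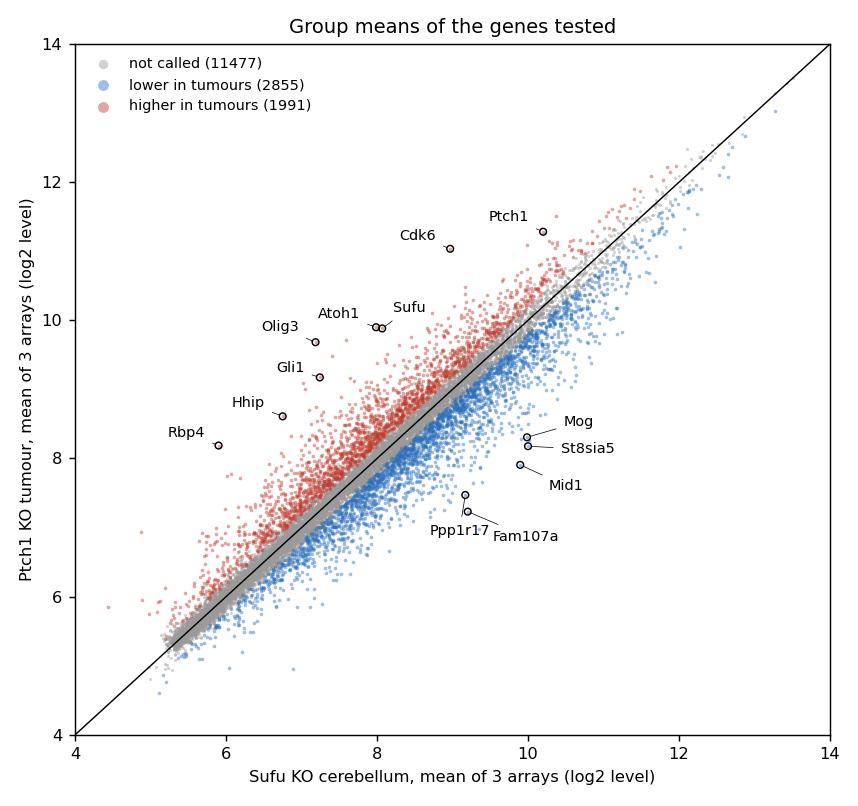
Each point is 1 of 16323 genes tested, with its mean log2 level on the 3 Sufu KO arrays on the horizontal axis and on the 3 tumour arrays on the vertical axis; the line marks equal levels. Red points are the 1991 genes called higher in the tumours, blue points the 2855 called lower and grey points the rest, and circled genes are named.

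The targeted genes were read first. Sufu stood at 8.07, 8.13 and 7.99 (log2 level) on the 3 Sufu KO arrays and at 9.91, 9.92 and 9.81 on the 3 tumour arrays. The wildtype arrays, at 9.04, 8.82 and 9.02, lay between the groups and overlapped neither. The difference between the mutants was 1.81 ± 0.08 log2 units (SE, n = 3 per group; limma adjusted p = 3.42e-07), or 3.52-fold. Ptch1 read 10.19, 10.16 and 10.25 in Sufu KO and 11.24, 11.44 and 11.17 in the tumours, a 2.12-fold difference (1.08 ± 0.08 log2 units, adjusted p = 2.82e-06). The wildtype arrays read 10.25 to 10.28. The part of Ptch1 that was deleted is not stated in the labels, so this level does not check the Ptch1KO label, on which every direction given here rests.

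Of 32 tested genes for pathway machinery, 8 were higher in the tumours and 2 lower, against 12.2% and 17.5% of all genes. The other 22 were not called, and the median log2 difference of the list was 0.07. Smo, the signal transducer that Ptch1 holds inactive, read 8.91, 8.82 and 8.90 in Sufu KO and 9.74, 9.59 and 9.33 in the tumours (0.68 ± 0.09 log2 units, limma adjusted p = 0.000212). Every tumour array lay above every Sufu KO array, and the wildtype arrays, at 8.24 to 8.39, lay below both. The coreceptor gene Gas1, which helps present ligand to Ptch1, was 1.44-fold higher (adjusted p = 0.00144). Evc and Evc2 encode partner proteins at the base of the cilium through which Smo acts, and they were 1.46-fold and 1.28-fold higher (adjusted p = 0.00252 and 0.0149). The other 2 that rose beside Gli2 and Sufu were Hhat, which attaches palmitate to the ligands, and Prkar2b, a regulatory subunit of protein kinase A, with log2 differences of 0.22 and 0.37. The 2 that fell were Prkar1a, another regulatory subunit of that kinase (-0.22, adjusted p = 0.0266), and Scube1, of a family of secreted proteins that release ligand (-0.30, adjusted p = 0.0462). Of these 10 calls, those of Evc2, Hhat, Prkar2b, Prkar1a and Scube1 each ended when 1 of several arrays was left out. Without tumour replicate 1, or without Sufu KO replicate 2, 5 components were called higher, and over the single-array omissions the lower calls ran from 0 to 2.

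The Gli genes differed from each other. Gli1, whose own transcription the pathway induces, was flat in Sufu KO at 7.27, 7.23 and 7.23, close to the wildtype arrays at 7.28 to 7.52, and read 9.24, 9.42 and 8.86 in the tumours. The groups did not overlap, and the difference was 3.81-fold (1.93 ± 0.12 log2 units, 95% confidence interval 1.67 to 2.20, limma adjusted p = 1.81e-06). Gli2, which does most of the activating, read 8.23, 8.24 and 8.07 in Sufu KO against 7.05 to 7.34 in wildtype, and 8.96, 8.81 and 8.38 in the tumours. It was 1.45-fold higher in the tumours than in Sufu KO (0.54 ± 0.13 log2 units, limma adjusted p = 0.00779), with tumour replicate 3 nearest to Sufu KO. Gli3, which acts mainly as a repressor, read 6.85, 6.84 and 6.82 against 7.25, 6.92 and 6.95, and its difference of 0.20 did not pass (interval 0.01 to 0.39, adjusted p = 0.110). Spop, the adaptor of a ubiquitin ligase that marks Gli2 and Gli3 for destruction, read 10.01, 9.76 and 9.91 against 9.79, 9.90 and 9.94. These overlapped, with a difference of -0.02 and an interval of -0.20 to 0.16 (adjusted p = 0.896).

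Hedgehog targets were mostly higher in the tumours: of 19 tested, 12 rose, 0 fell and 7 were not called, with a median log2 difference of 0.42 against -0.008 over all genes. Cdk6, a kinase that drives cells through G1, read 8.97, 8.78 and 9.16 in Sufu KO and 11.06, 11.20 and 10.85 in the tumours, beside 6.84 to 7.12 in wildtype. The 3 groups formed separate steps, and the tumours stood 4.19-fold above Sufu KO (2.07 ± 0.11 log2 units, limma adjusted p = 6.66e-07). Hhip, a decoy receptor that mops up ligand, read 6.59, 6.87 and 6.78 in Sufu KO and 8.47, 8.98 and 8.38 in the tumours. Its wildtype arrays, at 7.03 to 7.37, lay above Sufu KO and below the tumours, and the mutants differed 3.63-fold (1.86 ± 0.14 log2 units, adjusted p = 4.80e-06). Ccnd1, the cyclin that pairs with Cdk6, read 9.07, 9.16 and 9.27 against 10.57, 10.74 and 10.14, a 2.50-fold difference (adjusted p = 2.06e-05), with wildtype at 8.79 to 8.92.

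A second set of targets, like Cdk6, stood well above wildtype in Sufu KO. Mycn, a transcription factor gene that drives growth of the progenitors, read 7.32 to 7.69 in wildtype, 9.19, 9.08 and 9.26 in Sufu KO and 10.44, 10.23 and 10.11 in the tumours. The step between the mutants was 2.12-fold (1.08 ± 0.11 log2 units, limma adjusted p = 2.79e-05). Sfrp1, a secreted Wnt modulator, read 7.41 to 8.08, then 9.80, 10.07 and 10.09, then 11.26, 11.24 and 10.79 (1.11 ± 0.17 log2 units between the mutants, adjusted p = 0.000455). Ccnd2, the other D cyclin of granule progenitors, read 8.87 to 9.15 in wildtype, 11.23, 11.21 and 11.08 in Sufu KO and 11.48, 11.64 and 11.36 in the tumours. Its difference between the mutants was only 0.32 (adjusted p = 0.0180), and the call ended without tumour replicate 2 or without Sufu KO replicate 3.

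The remaining targets called were Bcl2, an inhibitor of cell death (0.55), the coreceptor gene Boc (0.47), Pdlim3 (0.42) and the ciliary trafficking gene Rab34 (0.39, log2 differences). Bcl2 and Pdlim3 had Sufu KO below both other groups. Bcl2 read 7.81, 7.88 and 7.99 in Sufu KO against 8.45, 8.46 and 8.44 in the tumours and 8.35 to 8.52 in wildtype (limma adjusted p = 0.000117). The 7 targets not called were Igf2, Nkx2-2, Nkx6-2, Foxf1, Foxf2, Foxc2 and Eya1, and they ran from -0.24 to 0.25. Nkx6-2 and Nkx2-2 are targets in the ventral spinal cord, and the Fox genes in mesenchyme, rather than in granule progenitors. Igf2, a growth factor gene, read 8.67, 8.43 and 8.78 against 8.75, 8.87 and 9.02, with an interval of 0.03 to 0.48 (adjusted p = 0.0907).

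**Figure D2:**
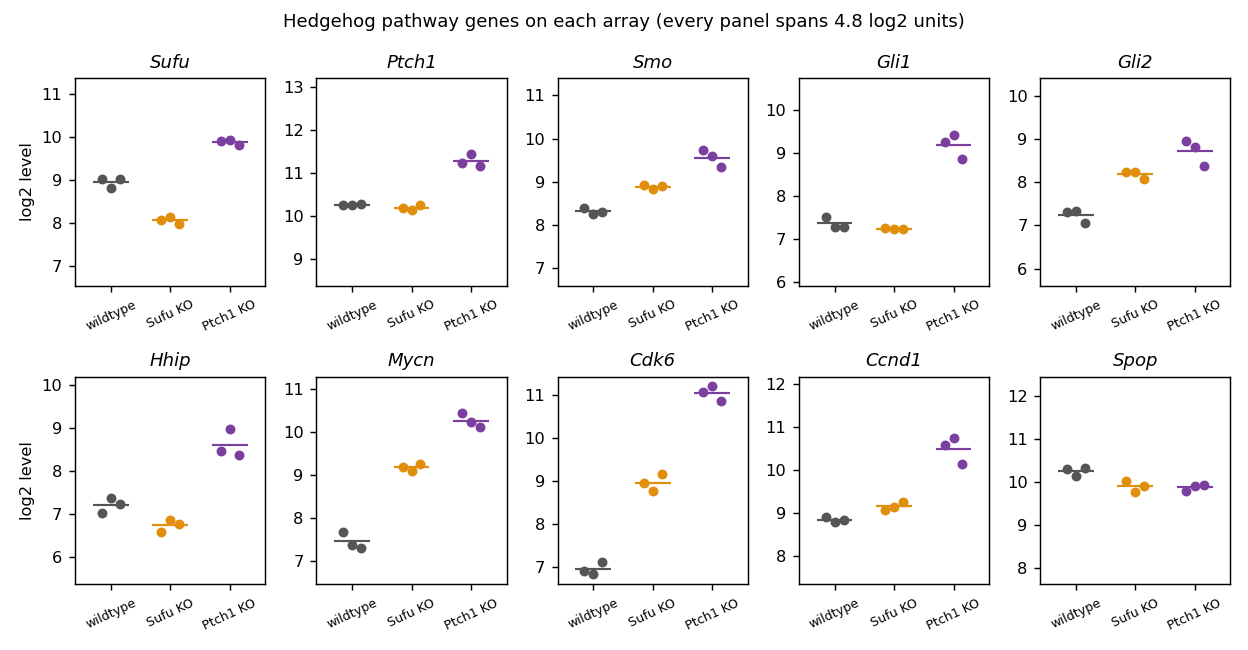
Points are single arrays and lines the mean of 3 arrays, on the log2 scale, for 10 genes of the Hedgehog pathway in the 3 groups (wildtype and Sufu KO cerebellum, and Ptch1 KO tumour); every panel spans the same range. Gli1, Ptch1 and Ccnd1 in Sufu KO lay near wildtype while the tumours lay above both, Mycn and Cdk6 rose in 2 steps, and Spop overlapped between the mutants.

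The genes with the largest differences in favour of the tumours included hindbrain progenitor factors. Olig3, a transcription factor of the rhombic lip, the germinal zone that gives rise to granule progenitors, read 7.19, 7.14 and 7.22 in Sufu KO and 9.97, 9.82 and 9.26 in the tumours, beside 5.30 to 5.54 in wildtype. No array of one group reached another group, and the mutants differed 5.65-fold (2.50 ± 0.15 log2 units, interval 2.18 to 2.81, limma adjusted p = 1.01e-06). Atoh1, the factor that specifies granule progenitors, read 7.77, 7.92 and 8.27 against 10.31, 9.97 and 9.42, with wildtype at 6.25 to 6.65 (3.77-fold between the mutants, adjusted p = 2.97e-05). Tumour replicate 3 was the lowest tumour array for both genes.

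Several others lay nearer to wildtype than to the tumours in Sufu KO. Rbp4, which carries retinol in blood, read 5.88, 5.90 and 5.93 in Sufu KO and 8.18, 8.58 and 7.80 in the tumours, with wildtype at 5.99 to 6.26 (4.88-fold, limma adjusted p = 2.29e-06). Smoc1, a secreted calcium-binding matrix protein gene, read 7.01, 7.08 and 7.06 against 9.10, 9.33 and 8.61 (3.91-fold). Hsd11b2, the enzyme that inactivates glucocorticoid hormone, read 7.15, 7.0 and 6.92 against 9.38, 9.32 and 8.61 (4.22-fold, adjusted p = 8.72e-06). Glucocorticoids are known to curb the division of granule progenitors. Lrig3, a transmembrane protein with leucine-rich repeats, was 4.38-fold higher, and Gpr50, an orphan relative of the melatonin receptors, 4.20-fold higher. Gpr50 was dim in Sufu KO, at 5.10, 4.59 and 4.92, and read 6.86, 6.72 and 7.24 in the tumours, the 1 gene of the 12 highest where tumour replicate 3 was the highest array. Islr2, a membrane protein of growing axons, was uneven within Sufu KO, at 6.92, 6.87 and 8.43, against 9.80, 9.87 and 8.77 in the tumours. Its difference of 2.08 carried an SE of 0.38 (adjusted p = 0.0012).

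Genes of dividing cells were higher throughout. All 29 tested genes of mitosis were called higher, with a median log2 difference of 0.90, and 35 of 36 tested for S phase entry and DNA replication, with a median of 0.75, against 12.2% of all genes called higher. Mki67, the proliferation marker, read 9.59, 9.67 and 9.75 in Sufu KO and 10.78, 10.74 and 10.28 in the tumours, beside 6.82 to 7.31 in wildtype. The mutant groups did not overlap and differed 1.91-fold (0.93 ± 0.14 log2 units, limma adjusted p = 0.000343). Cenpe and Kif11 encode motor proteins of the mitotic spindle, and they were 2.05-fold and 2.48-fold higher. Plk1, a kinase that starts mitosis, was 1.96-fold higher, and Mad2l1, of the spindle checkpoint, 1.93-fold higher. The smallest difference in the mitosis list was that of Nek2, a centrosome kinase (0.42), and it ended without tumour replicate 1.

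Of the replication genes, Mcm5 and Mcm7, subunits of the helicase that opens DNA at replication origins, were 1.99-fold and 1.90-fold higher (limma adjusted p = 8.86e-06 and 4.01e-05). Chaf1b, a chaperone that loads histones onto new DNA, read 7.81, 7.91 and 7.84 against 9.29, 9.26 and 8.79 (2.39-fold), with wildtype at 6.08 to 6.40. Pold1, the catalytic subunit of a replicative polymerase, was 1.54-fold higher. Ccne1, the cyclin that opens S phase, was the 1 gene not called, at 7.65, 7.61 and 7.45 against 7.79, 7.91 and 7.60 (0.20, 95% confidence interval 0.01 to 0.38, adjusted p = 0.113). Within the list the calls of Ccne2, Orc6 and Rfc3 ended when single arrays were left out.

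Promoters of these genes were read for the letters TTTGGCGC or TTTCGCGC, the core bound by E2F factors, which switch on genes of S phase, on either strand in 250 bases before to 50 after the start in RefSeq (GRCm38.p6). Of 30 replication genes with a promoter in that table, 11 (36.7%) held the letters, against 251 of all 27025 genes in the table (0.929%). Among called genes the share was 3.63% of 1599 that were higher and 0.841% of 2258 that were lower, beside 1.36% of 8986 genes tested and not called. In the mitosis list 1 of 25 promoters held them. The following 5 stretches of up to 60 bases upstream of the start are shown since their genes were higher in the tumours and carry the letters there; the matches are in capitals, adjoining matches run together, and a match describes letters, not binding.
Mcm6, chr1:128359782-128359841, minus strand: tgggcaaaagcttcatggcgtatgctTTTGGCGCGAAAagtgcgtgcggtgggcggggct
Mcm5, chr8:75109330-75109389, plus strand: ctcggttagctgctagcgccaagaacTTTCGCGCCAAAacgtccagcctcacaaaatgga
Pola1, chrX:93632260-93632319, minus strand: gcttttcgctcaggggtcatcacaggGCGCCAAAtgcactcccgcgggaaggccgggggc
Uhrf1, chr17:56304102-56304161, plus strand: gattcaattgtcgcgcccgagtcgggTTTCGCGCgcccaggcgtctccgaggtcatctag
Orc1, chr4:108579401-108579453, plus strand: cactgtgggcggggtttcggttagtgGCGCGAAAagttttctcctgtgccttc
Mcm6, another helicase subunit, had the largest difference of the list: 8.13, 7.95 and 8.33 in Sufu KO against 9.57, 9.85 and 9.12 in the tumours (1.38 ± 0.16 log2 units, limma adjusted p = 7.39e-05). Pola1, which primes new strands, differed by 0.96, Uhrf1, which guides methylation of new DNA, by 0.87, and Orc1, of the origin recognition complex, by 0.63. The letters GACCACCCA, the Gli consensus, stood in the promoters of 78 genes in all (0.289%) and in 0 of the 11 Hedgehog targets in the table. The other 8 targets tested, Gli1 among them, were not searched, and more distant sites lie outside this window.

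Of 9 tested genes for brakes of the cycle, the inhibitors of cyclin-dependent kinases and pocket proteins, 2 were higher and 0 lower, with a median of 0.05. Among all genes 12.2% were called higher and 17.5% lower. Cdkn2c, an inhibitor of Cdk4 and Cdk6, read 7.45, 7.38 and 7.72 in Sufu KO and 8.33, 8.41 and 8.18 in the tumours (1.73-fold, limma adjusted p = 0.000129). Rbl1, a pocket protein related to the retinoblastoma protein, was 1.78-fold higher, while its relative Rbl2 differed by 0.23 (adjusted p = 0.125). Without Sufu KO replicate 3, 4 members were called, Rbl2 among them (adjusted p = 0.0348). Of 14 targets of p53, 2 were higher and 2 lower, near the shares of all genes (12.2% and 17.5%). Eda2r, a receptor of the tumour necrosis factor family, differed by 0.89 and Tnfrsf10b, another, by 0.27, while the stress kinase gene Plk2 (-0.45) and the junction protein gene Perp (-0.35) were lower. The call of Tnfrsf10b ended without tumour replicate 1 or 2, or without Sufu KO replicate 1 or 3.

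The granule lineage list changed with stage. Of 14 progenitor genes, 4 were higher and 5 lower, against 12.2% and 17.5% of all genes. The other 5 were not called, and the list median was 0.02. Beside Atoh1, those that rose were Cxcr4 (1.89-fold), the chemokine receptor that holds progenitors in the outer layer, Barhl1 (1.53-fold), a homeobox factor below Atoh1, and Insm1 (1.35-fold), a zinc finger factor of dividing neuronal precursors. Those that fell were Mfap4 (-0.57), Zic2 (-0.37), Barhl2 (-0.33), Zic5 (-0.28) and Pax6 (-0.22, log2 differences). The call of Zic5 rests on its brighter probe set. A dimmer one differed by -0.15 and was not called (limma adjusted p = 0.177). Zic2, a zinc finger factor of the lineage, read 11.71, 11.81 and 12.01 in Sufu KO and 11.49, 11.40 and 11.54 in the tumours (limma adjusted p = 0.00706), beside 11.69 to 11.89 in wildtype. The lower calls numbered 3 without tumour replicate 2, or without Sufu KO replicate 2 or 3, as those of Pax6 and Barhl2 ended, and that of Pax6 also ended with the replicate number as a block.

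Newborn and migrating granule neuron genes went both ways: 3 of 20 were higher and 7 lower, against 12.2% and 17.5% of all genes. The list median was -0.15. Dcc, a receptor that steers axons and migrating neurons along netrin, read 9.78, 9.91 and 10.03 in Sufu KO and 10.84, 10.76 and 10.52 in the tumours, beside 7.42 to 7.85 in wildtype (1.74-fold between the mutants, limma adjusted p = 0.000361). Its counterpart Unc5c, which turns the netrin response to repulsion, went the other way, from 10.71, 10.85 and 10.82 to 9.99, 9.80 and 10.31 (1.69-fold lower, adjusted p = 0.000372). Plxna2, a semaphorin coreceptor that governs inward movement of granule cells, was 1.53-fold lower, and Stmn2, a microtubule regulator of growing neurites, 1.49-fold lower. Nhlh1 and Nhlh2, factors of newly postmitotic neurons, were higher by 0.33 and 0.31. Both calls ended without tumour replicate 1 and without Sufu KO replicate 2, which left Dcc as the 1 higher member. Dcx, the microtubule protein of migrating neurons, overlapped between the mutants (0.01, interval -0.20 to 0.23).

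Mature granule neuron genes were lower: 20 of 22 fell, 1 rose and 1 was not called, with a median of -0.98, against 17.5% of all genes called lower. Calb2, the calcium buffer calretinin, read 9.88, 10.01 and 9.94 in Sufu KO and 8.70, 8.43 and 8.84 in the tumours, with wildtype higher at 10.71 to 11.14 (2.44-fold between the mutants, limma adjusted p = 1.58e-05). Slc17a7, the vesicular glutamate transporter of mature granule cells, read 10.46, 10.49 and 10.47 against 8.88, 8.94 and 9.59 (2.52-fold). Etv1, a transcription factor of maturation, was 2.14-fold lower and Camk4, a calcium-dependent kinase of the nucleus, 1.95-fold lower. Cbln3, a secreted organiser of granule cell synapses, had the largest difference (-1.52) and the widest tumour spread, at 8.41, 9.0 and 9.71. The 1 member that rose was Cdh15, an adhesion molecule, by 0.24 (adjusted p = 0.0150). Without tumour replicate 2 that call ended, and without tumour replicate 3 another member joined it, giving 2.

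The parts of the neuron that serve signalling were lower as well. Among all genes 17.5% were called lower and 12.2% higher. Of 19 synaptic vesicle and postsynaptic density genes, 18 fell and 0 rose, with a median of -0.86. Camk2a, the abundant kinase of the postsynaptic density, read 7.82, 7.92 and 7.83 against 6.56, 6.62 and 6.67, a 2.36-fold difference with tight replicates (limma adjusted p = 6.66e-07). Shank1, a postsynaptic scaffold, was 2.21-fold lower and Syt2, a calcium sensor of vesicle release, 2.55-fold lower. Of 21 potassium and sodium channel genes 18 fell and 1 rose, with a median of -0.76. Kcnip4, a partner of potassium channels, read 8.91, 9.01 and 8.89 against 7.25, 7.38 and 7.56 (2.91-fold). Scn1a, a sodium channel of mature neurons, was 2.06-fold lower, while Scn3a, a sodium channel of the embryonic brain, was the 1 riser (0.53, adjusted p = 0.00186) at a low level, 5.18 to 5.49 in Sufu KO and 5.67 to 6.06 in the tumours.

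Receptor subunits differed within their families, and their counts are to be read against 17.5% of all genes called lower and 12.2% higher. Among 10 GABA-A receptor subunits 5 fell, 0 rose and 5 were not called. Gabra6, the subunit made almost only by mature granule cells, read 11.16, 11.12 and 11.24 in Sufu KO and 9.46, 9.58 and 10.37 in the tumours (2.59-fold, limma adjusted p = 0.000138), and Gabrb2 was 2.14-fold lower. Gabra2, a subunit of young neurons, was 1.5-fold lower (-0.59), and Gabrd, a subunit of receptors outside synapses, differed by -0.89. Gabrg3 differed by -0.22, and its call ended with the mutant arrays alone, with no filter, with an intensity trend, with the replicate number as a block, and without tumour replicate 1 or 2, Sufu KO replicate 1 or 2, or any 1 wildtype array. Gabra3 and Gabra4 differed by -0.04 and -0.01 and were not called. Among 15 ionotropic glutamate receptor genes 7 fell and 0 rose. Grin2a and Grin2c, the NMDA receptor subunits of mature cells, were 2.35-fold and 2.26-fold lower. Grin2b, the subunit of immature neurons, stood highest in Sufu KO, at 9.96, 9.89 and 9.93, against 9.28, 9.22 and 9.55 in the tumours and 9.05 to 9.51 in wildtype (adjusted p = 0.00285). None of the 4 AMPA receptor genes was called (-0.21 to -0.05).

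Axon guidance genes went both ways, with 13 of 26 lower and 4 higher, against 17.5% and 12.2% of all genes. All 4 Unc5 genes were lower, Unc5c by 0.76, Unc5b by 0.71, Unc5a by 0.65 and Unc5d by 0.57 log2 units. The netrin gene Ntn1 (0.53), the netrin receptor Dcc (0.80), Slit1 (0.58) and the Slit receptor Robo1 (0.49) were higher. Slit3 was 1.85-fold lower and the semaphorin coreceptor Plxna1 1.74-fold lower (limma adjusted p = 0.000119 and 2.94e-05).

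The genes lowest in the tumours overall came from several cell types. Fam107a, an actin-associated gene of astrocytes, read 9.06, 9.41 and 9.14 in Sufu KO and 6.73, 6.96 and 8.0 in the tumours, beside 10.82 to 11.06 in wildtype (3.92-fold between the mutants, limma adjusted p = 0.000103). St8sia5, a sialyltransferase that builds gangliosides of neurons, read 9.97, 10.08 and 9.96 against 7.76, 8.23 and 8.55 (3.54-fold). Ppp1r17, a phosphatase inhibitor of Purkinje cells, was 3.24-fold lower, and Unc13c, which primes vesicles at granule cell terminals, 3.01-fold lower. Strip2, Faim2, Rit2 and Kndc1, the last 3 of them genes of neurons, were 3.05-fold to 3.10-fold lower. Mid1, a microtubule-bound ubiquitin ligase gene at the edge of the region that X and Y share, read 9.75, 10.12 and 9.81 in Sufu KO and 7.91, 8.13 and 7.68 in the tumours. Its wildtype arrays read 9.90, 8.13 and 9.81, so 1 wildtype array lay at the level of the tumours, and its log2 difference of -1.99 carried an SE of 0.35.

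Markers of other cerebellar cells were then read, against 17.5% of all genes called lower and 12.2% higher. The share of each cell type in the samples was not measured. Of 13 mature oligodendrocyte genes 12 fell and 0 rose, with a median of -1.29, the lowest of all lists, and the mean level of the list was 8.77 to 9.19 in Sufu KO and 7.66 to 7.87 in the tumours. Mag, a myelin adhesion protein, read 9.76, 10.36 and 9.91 against 8.13, 8.16 and 8.51 (3.36-fold, limma adjusted p = 7.79e-06). Mobp and Mog, 2 more myelin proteins, were 3.33-fold and 3.2-fold lower. Mog still read 8.12 to 8.41 in the tumours. Genes of the precursors of these cells went the other way: 6 of 10 were higher, against 12.2% of all genes, and 0 lower. The other 4 were not called, and the list median was 0.33. The 1 member with a negative difference stood at -0.56, without a call. Pdgfra, the growth factor receptor of the precursors, read 9.14, 9.12 and 9.23 against 10.50, 10.45 and 10.22, with wildtype at 7.87 to 8.17 (2.34-fold between the mutants). Lhfpl3 was 1.89-fold higher and the transcription factor gene Olig1 1.73-fold higher. Olig1 was lowest in Sufu KO, at 7.78, 8.22 and 8.2, against 8.87, 8.93 and 8.77 in the tumours and 8.55 to 8.65 in wildtype. Pdgfa, a ligand of Pdgfra, was 2.55-fold higher in the tumours (adjusted p = 2.05e-06).

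The next neuron lists are to be read against 17.5% of all genes called lower and 12.2% higher. Purkinje cell genes were lower in 10 of 12 cases, with a median of -1.04. Their mean list level was 9.48 to 9.55 in Sufu KO and 8.70 to 8.82 in the tumours. Pcp2, a modulator of G proteins, read 9.46, 9.62 and 9.62 against 8.27, 8.31 and 8.30 (2.42-fold, limma adjusted p = 6.66e-07), and Calb1, the calcium buffer calbindin, was 2.28-fold lower. The 2 members that rose were developmental factors that other cells also make. Foxp2 read 7.19, 7.10 and 7.30 in Sufu KO, near the wildtype arrays at 6.93 to 7.08, and 8.50, 8.77 and 8.35 in the tumours (2.54-fold, adjusted p = 4.30e-06). Lhx1 differed by 0.32, and its call ended without tumour replicate 1, or Sufu KO replicate 1 or 2. Of 13 GABAergic interneuron genes 11 fell and 0 rose, with a median of -0.49. Pvalb, the calcium buffer parvalbumin, was 2.77-fold lower, Gad1, which makes GABA, 2.18-fold lower and Tfap2b, a factor of interneuron precursors, 1.98-fold lower. Unipolar brush cell genes fell in 4 of 5 cases, among them Eomes, a T-box factor of these cells and of the rhombic lip, at 8.11, 8.02 and 8.05 against 6.76, 6.94 and 7.21 (2.13-fold).

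Astrocyte and microglia genes moved in opposite directions on balance, beside 17.5% of all genes called lower and 12.2% higher. Of 15 Bergmann glia and astrocyte genes 7 fell and 1 rose, with a median of -0.34. Beside Fam107a, the glycolytic gene Aldoc was 1.68-fold lower, the septin gene Septin4 1.57-fold lower and the homeodomain gene Hopx 1.54-fold lower. Without tumour replicate 1, 2 members were higher. The riser with all arrays, Slc6a11, which takes up GABA, read 10.28, 10.52 and 10.15 against 11.12, 10.98 and 11.25 (1.74-fold, limma adjusted p = 0.000277). Of 16 microglia genes 8 were higher and 1 lower, with a median of 0.30. C1qb, a complement subunit, was 1.63-fold higher, Cd68, a lysosomal protein of phagocytes, 1.52-fold and the protease gene Ctss 1.46-fold. Lyz2, the lysozyme of phagocytes, read 6.58, 6.63 and 6.97 against 7.52, 8.59 and 8.14 (2.56-fold, adjusted p = 0.00036). Markers of resident microglia differed among themselves: Cx3cr1, the fractalkine receptor, was among the 8 higher, Tmem119 (0.03) and P2ry12 (0.10) were not called, and Siglech was lower, by -0.22 (adjusted p = 0.0310), a call that ended without tumour replicate 1, 2 or 3, without Sufu KO replicate 2 or 3, and with the replicate number as a block. The mean level of the microglia list was 6.96 to 7.09 in Sufu KO and 7.23 to 7.42 in the tumours.

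The next lists are to be read against 12.2% of all genes called higher and 17.5% called lower. Of 15 endothelial and pericyte genes 2 were called, Slco1a4 (-0.50) and Esam (-0.25), both lower. Without Sufu KO replicate 2 or 3 neither was called, and without tumour replicate 1 neither passed (limma adjusted p = 0.0929 and 0.108). In that set the pericyte gene Rgs5 was called instead (-0.36, adjusted p = 0.0282), and without tumour replicate 2 Slco1a4 alone was called. Among 11 meningeal fibroblast genes Lum (0.47) and Col1a1 (0.27) were higher and Ptgds (-0.79) lower, and the call of Col1a1 ended without tumour replicate 1 or 3, or Sufu KO replicate 2 or 3. With the replicate number as a block Col1a1 did not pass (limma adjusted p = 0.0540), and 2 members were lower. Of 9 choroid plexus genes only Clic6, a chloride channel protein, was called (2.37-fold, adjusted p = 3.50e-05), while Ttr, the defining transthyretin gene, ranged from 7.79 to 11.88 over the 9 arrays and was not called (0.37). Without tumour replicate 3 Otx2, a homeobox factor shared by choroid plexus and granule progenitors, was called too (0.33, adjusted p = 0.0421). Slc4a1 and Alas2, genes of red cells, differed by -0.03 and 0.00. Of 6 genes of brainstem and midbrain neurons 2 were lower, Slc6a5 and Ddc, and Th and Chat were not called. Whether the differences in marker lists account for those of other genes was not tested.

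**Figure D3:**
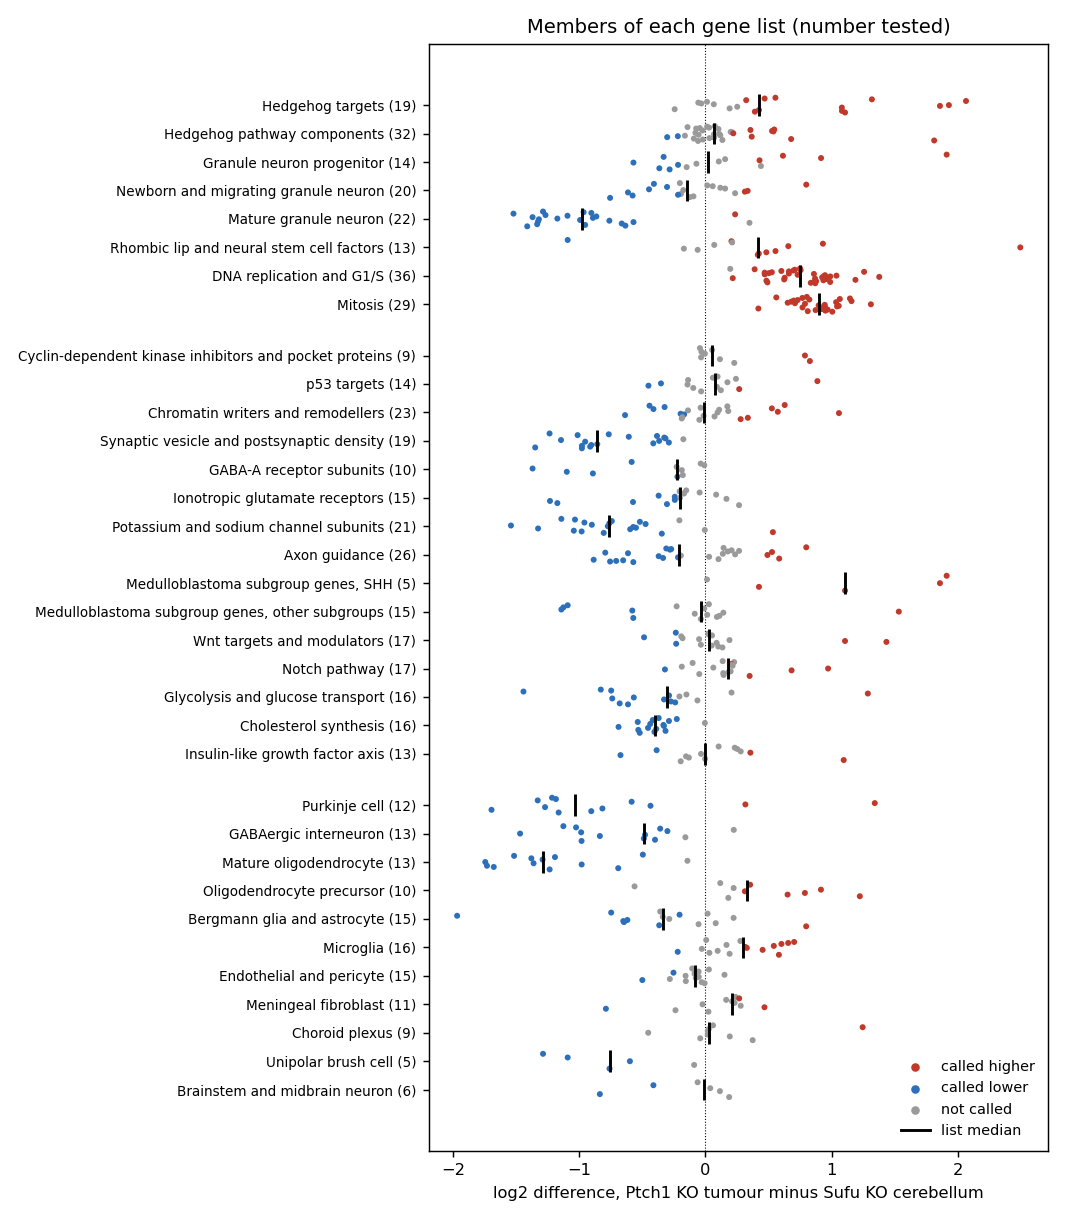
Each point is the log2 difference (Ptch1 KO tumour minus Sufu KO cerebellum) of 1 tested member of a gene list; red is called higher, blue lower and grey not called, and black bars are list medians. Mitosis and replication members lie to the right, with medians of 0.90 and 0.75, and mature oligodendrocyte, Purkinje and mature granule members to the left, with medians of -1.29, -1.04 and -0.98.

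Other signalling routes were read next, against 12.2% of all genes called higher and 17.5% lower. Of 17 Notch genes 4 were higher and 1 lower. Jag1, a Notch ligand of progenitors, read 6.58, 6.56 and 6.43 in Sufu KO and 7.43, 7.90 and 7.15 in the tumours (1.96-fold, limma adjusted p = 0.000343), while the ligand gene Jag2 was lower (-0.32). Lfng, which adds sugars to Notch, was 1.61-fold higher, and without tumour replicate 3 the Notch genes called higher numbered 8 and those called lower 2. Of 17 Wnt targets and modulators 2 were higher and 3 lower, near the shares of all genes. Both risers were secreted Frizzled-related proteins: Sfrp1, given above, and Sfrp2, at 7.63, 7.71 and 7.74 against 9.42, 9.41 and 8.55 (2.71-fold, adjusted p = 0.000161). Lgr5, a receptor that boosts Wnt signals, was 1.4-fold lower, and Axin2 and Sp5, feedback targets of the Wnt pathway, differed by -0.24 and -0.23. Axin2 lost its call without tumour replicate 1 or Sufu KO replicate 2, and Sp5 with most single-array omissions.

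Among 13 genes of the insulin-like growth factor axis 2 rose and 2 fell, near the 12.2% and 17.5% of all genes. Irs1, the adaptor that carries the receptor's signal, read 8.84, 8.93 and 9.05 against 10.23, 10.29 and 9.58 (2.14-fold, limma adjusted p = 0.000185). Igfbp3 also rose (0.36), a call that ended without tumour replicate 1 or 2 or Sufu KO replicate 2, and without tumour replicate 3, or without Sufu KO replicate 3, 4 members were called higher. Igfbp5, a binding protein, was 1.6-fold lower, and Igf2r, which clears the ligand, 1.31-fold lower. Rhombic lip and neural stem cell genes were higher in 8 of 13 cases, against 12.2% of all genes, with a median of 0.42. Sox2, a stem cell factor, was lowest in Sufu KO, at 7.41, 7.48 and 7.65, against 8.06, 7.99 and 8.16 in the tumours and 8.10 to 8.23 in wildtype (1.47-fold between the mutants, adjusted p = 0.000249). Of 5 genes that mark Hedgehog medulloblastoma in patients, 4 were higher (Atoh1, Hhip, Sfrp1 and Pdlim3) and Eya1 was not called, at 0.01 with an interval of -0.22 to 0.25. Of 15 genes of other medulloblastoma classes 5 fell, 1 rose and 9 were not called, with a median of -0.04. Of all genes, 17.5% were called lower and 12.2% higher. The riser was the neural patterning gene Mab21l2 (2.90-fold, limma adjusted p = 6.84e-05).

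Chromatin genes went both ways. Of 23 tested, 6 were higher and 6 lower, against 12.2% and 17.5% of all genes. Actl6a, the subunit that the BAF remodelling complex carries in neural progenitors, read 9.87, 9.70 and 9.76 against 10.48, 10.48 and 10.25 (1.55-fold, limma adjusted p = 0.000130). Its neuronal counterpart Actl6b was lower (-0.44), as was Smarca2, an ATPase of the complex (1.56-fold). Hmgb2, a chromatin protein of dividing cells, was higher by 1.06 and Ezh2, the histone methyltransferase of the Polycomb complex, by 0.57. Dnmt1, which copies methylation after replication, was higher by 0.53, while Dnmt3a, which sets new methylation in neurons, was 1.33-fold lower. Kdm6b, Kmt2d and Chd5 completed the lower calls, and 3 were left without tumour replicate 2 or without Sufu KO replicate 2. The calls of Kdm6b and Kmt2d ended in each of the 9 single-array omissions, with the mutant arrays alone, with quantile normalization and with the replicate number as a block.

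Metabolic genes were mostly lower, in lists to be read against 17.5% of all genes called lower and 12.2% higher. Glycolysis and glucose transport genes fell in 11 of 16 cases, with a median of -0.31, and Hk2 was the 1 that rose. Hk2, the hexokinase of proliferating cells, read 7.36, 7.15 and 7.31 in Sufu KO and 8.58, 8.68 and 8.42 in the tumours, with wildtype at 6.99 to 7.20 (2.44-fold between the mutants, limma adjusted p = 2.64e-06). Eno2, the neuronal enolase, read 10.86, 10.77 and 10.88 against 9.11, 9.32 and 9.73 (2.72-fold lower), and Aldoa was 1.78-fold lower. The genes called higher numbered 2 without tumour replicate 3 or Sufu KO replicate 3. For Hk1, the hexokinase of neurons, the brighter probe set differed by 0.21 (limma adjusted p = 0.0702) and a dimmer one by -0.81 (adjusted p = 0.000102), so no direction is given for it. Cholesterol synthesis genes fell in 15 of 16 cases with a median of -0.40. Sqle, the enzyme that makes squalene epoxide, read 10.09, 10.05 and 10.08 in Sufu KO and 9.57, 9.54 and 9.55 in the tumours, where it overlapped the wildtype range of 9.55 to 9.57 (1.44-fold, adjusted p = 5.02e-05). Hmgcs1 and Nsdhl, earlier and later enzymes of the route, were each 1.45-fold lower. Their Sufu KO arrays were the highest of the 3 groups, 10.65 to 10.72 for Hmgcs1 and 9.51 to 9.67 for Nsdhl.

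The tumour arrays were not alike in these lists. Relative to the mean of the Sufu KO arrays, the median mitosis gene stood 1.11 higher on tumour replicate 1, 0.98 on replicate 2 and 0.55 on replicate 3. For DNA replication and G1/S the values were 0.81, 0.92 and 0.56. Mature granule neuron genes were negative on each array, and least so on replicate 3, at -1.21, -1.10 and -0.65, and synaptic genes at -0.97, -0.89 and -0.59. Purkinje genes read -1.08, -1.12 and -0.78. In contrast, cholesterol synthesis genes read -0.35, -0.42 and -0.38, and microglia genes 0.16, 0.23 and 0.40, with replicate 3 highest. These 7 list medians had the same sign on all 3 tumour arrays.

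**Figure D4:**
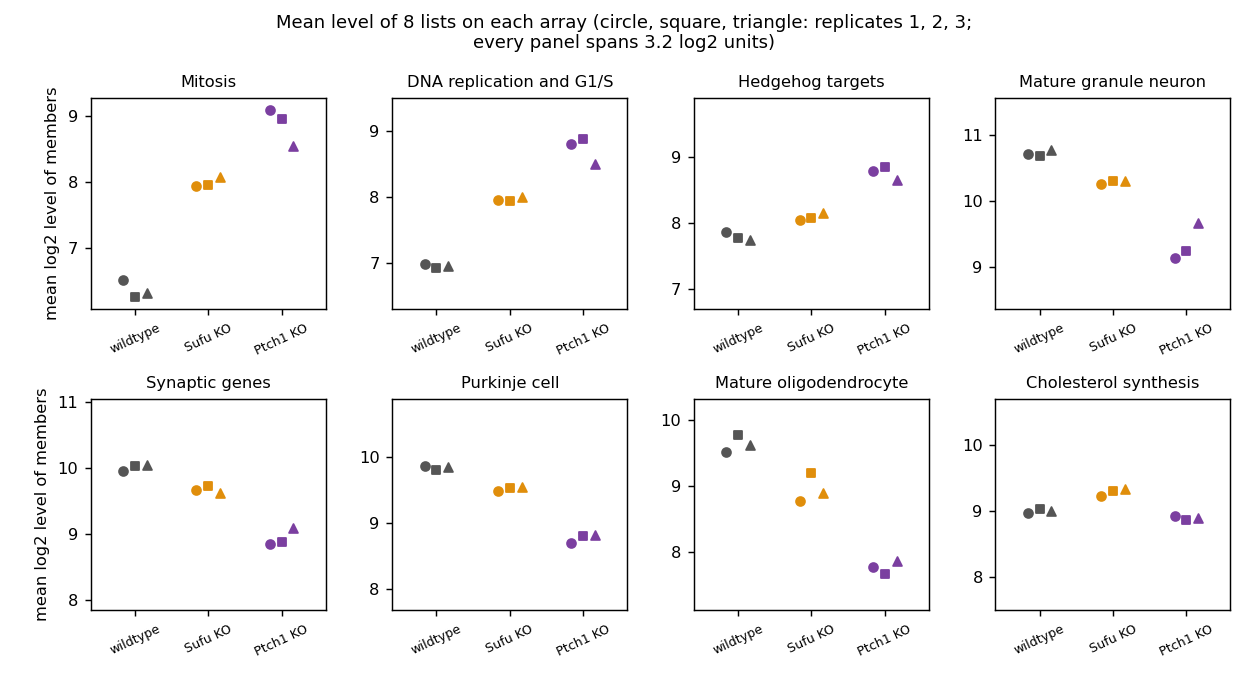
Points are the mean log2 level of a list's tested members on 1 array, with circles, squares and triangles for replicates 1, 2 and 3; every panel spans 3.2 log2 units. The Sufu KO arrays lie close together in these 8 panels except that of mature oligodendrocytes, and tumour replicate 3 (triangle) lies nearest to them for mitosis, replication and mature granule neuron genes.

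Some genes placed Sufu KO outside both other groups, and these were picked after their values were seen. Smad3, which carries signals of the transforming growth factor beta family, read 8.36, 8.38 and 8.31 in Sufu KO, 9.39, 9.56 and 9.33 in the tumours and 9.12 to 9.31 in wildtype (2.12-fold between the mutants, limma adjusted p = 3.61e-06). Syt13, of the synaptotagmin family, read 8.48 to 8.59 in Sufu KO, 8.95 to 9.33 in the tumours and 9.05 to 9.13 in wildtype. In the other direction Grm5, a metabotropic glutamate receptor, read 10.20, 10.09 and 10.01 in Sufu KO against 9.39 to 9.78 in the tumours and 9.43 to 9.55 in wildtype (-0.55, adjusted p = 0.00102). Kcnj6, a potassium channel subunit, read 9.08 to 9.34 against 8.2 to 8.50 and 8.36 to 8.67, and Dok6, an adaptor of receptor kinases, 8.79 to 9.0 against 7.91 to 8.45 and 8.0 to 8.29. Prm1, a sperm protamine gene, was high in both mutants, at 9.86, 9.92 and 10.13 in Sufu KO and 10.33, 10.44 and 10.54 in the tumours, with wildtype at 5.74 to 6.13. The step between the mutants was 1.38-fold (adjusted p = 0.00512), and its neighbour Prm2 overlapped in all 3 groups, at 6.07 to 6.47.

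The arrays also carry probe sets at microRNA loci, which read the transcript of the locus and not the mature microRNA. Of 158 such loci tested, 8 were higher and 24 lower, both smaller shares than the 12.2% and 17.5% of all genes. The lower ones lay mostly in 1 place. Between Meg3 and Dio3, an imprinted stretch of chromosome 12 whose maternal copy makes a long string of microRNAs, 20 of 31 loci were lower and 0 higher, with a median of -0.43, while elsewhere 4 of 127 were lower and 8 higher, with a median of 0.02. To show products of both directions, the mature sequences of 3 loci lower within the stretch and 4 higher elsewhere are printed from RefSeq (GRCm38.p6), 1 arm for each, with the seed, bases 2 to 8 that pair with targets, in capitals.
miR-382-5p: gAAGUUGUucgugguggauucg
miR-377-3p: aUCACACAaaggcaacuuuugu
miR-380-3p: uAUGUAGUaugguccacaucuu
miR-99a-5p: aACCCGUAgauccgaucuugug
let-7c-5p: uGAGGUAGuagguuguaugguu
miR-18a-5p: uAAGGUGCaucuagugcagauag
miR-181b-5p: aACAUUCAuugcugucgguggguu
No 2 of these 7 share a seed. The Mir382 locus read 7.43, 7.40 and 7.53 in Sufu KO and 6.09, 6.2 and 6.43 in the tumours, with wildtype at 8.03 to 8.38 (-1.21 ± 0.10 log2 units, limma adjusted p = 9.40e-06). Mir377 differed by -1.19 and Mir380 by -1.07. Meg3, the long noncoding RNA at the head of the stretch, read 10.92, 10.91 and 10.76 against 9.56, 9.70 and 10.05 (2.13-fold lower, adjusted p = 3.45e-05). Rian, a noncoding RNA within it, differed by -0.47, but Sufu KO replicate 2 (7.0) and tumour replicate 3 (7.02) crossed. Its call ended with the replicate number as a block (adjusted p = 0.0581), without tumour replicate 1 or 2, and without Sufu KO replicate 1 or 3. The genes that the paternal copy expresses were not called, Dlk1 at 0.05, Rtl1 at -0.08 and Dio3 at 0.12. The loci of the stretch share a transcript or a neighbourhood, so their calls are not independent of each other.

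Outside that stretch, neighbours on chromosome 16 were highest. The Mir99a locus read 5.99, 6.42 and 6.16 in Sufu KO and 7.75, 7.69 and 7.72 in the tumours (2.90-fold, limma adjusted p = 2.05e-06), and Mirlet7c-1 4.37, 4.50 and 4.46 against 5.82, 6.03 and 5.70 (2.65-fold). The wildtype arrays lay near Sufu KO in both, at 6.21 to 6.44 and 4.60 to 4.88. Mir99ahg, the noncoding host gene of both loci, was 2.57-fold higher on its brightest probe set and differed by 1.58 on another, while the remaining one differed by 0.06 (adjusted p = 0.717). Mir18, of the Mir17 cluster that Mycn is known to induce, differed by 1.07, and its host gene Mir17hg by 0.58 (adjusted p = 0.00346). Mir181b-2 differed by 0.95. These readings are of precursors, and the mature microRNAs were not measured.

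**Figure D5:**
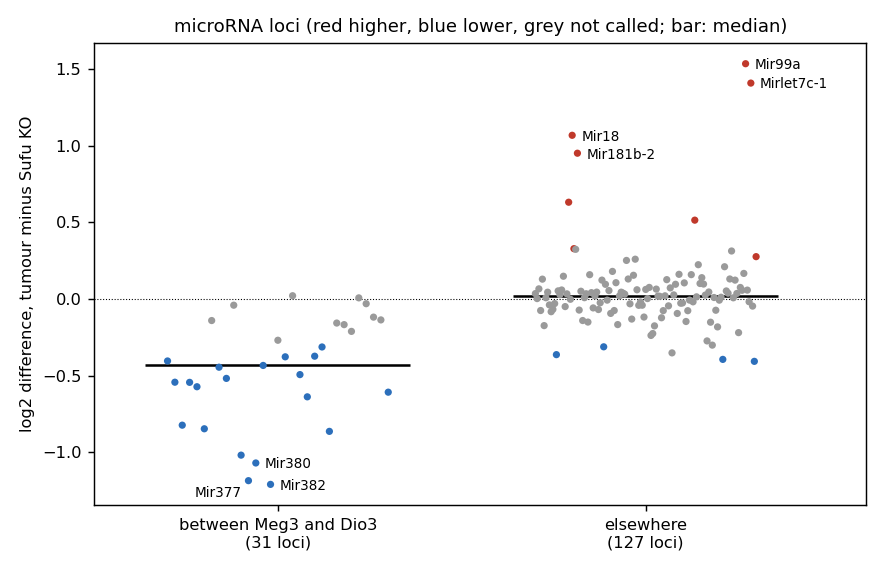
Each point is the log2 difference (Ptch1 KO tumour minus Sufu KO cerebellum) of 1 microRNA locus, for 31 loci between Meg3 and Dio3 and 127 elsewhere; red is called higher, blue lower, grey not called, and bars are medians. The medians were -0.43 and 0.02, with Mir382 lowest and Mir99a highest.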

How the data were processed

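RNA from 9 samples was measured on Affymetrix Mouse Gene 1.0 ST arrays. The values are log2 probe set levels from the series' value table as the authors deposited it; how they were normalized is not given in the sources used here. Of 35556 probe sets, 21789 carried exactly 1 gene in the platform annotation, 1621 several, and 12146 were not listed there. Each of 19938 genes was read from its brightest such probe set over the 9 arrays, and the 16323 genes that exceeded the 25th percentile of 3 or more arrays were tested. limma 3.58.1 in R 4.3.3 was fitted to all 9 arrays, so that wildtype shared in the estimate of the spread, with the contrast Ptch1KO_mb minus SufuKO_cb. Benjamini-Hochberg adjustment ran over all genes tested, with 0.05 as threshold. A fold is 2 raised to the absolute log2 difference. Errors are moderated SEs and intervals are 95% confidence intervals. The same steps were tested on simulated data.

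The gene lists, the named genes and the comparison were chosen with earlier results of these data known. Named by rule were Sufu, Ptch1, Spop, Gli1, Gli2, Gli3, Smo and Mycn, the 12 highest and 12 lowest differences among called genes whose groups did not overlap (leaving out placeholder symbols and receptors of smell), the 4 members with the smallest p of each main list and 3 of each other list, and each called member where 5 or fewer moved one way. All other genes were named after their values were seen, whether list members given as further examples or genes outside the lists such as Pdgfa, Lyz2, Smad3, Syt13, Grm5, Dok6 and Prm1. E2F and Gli letters were searched in RefSeq promoters on both strands. The labels do not say whether replicate numbers pair the samples. The deviations of same-numbered samples correlated at 0.026, -0.216 and -0.313, and those of differently numbered ones at -0.304 to 0.397. With 3 samples per group these values cannot decide it.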

Additional observations from a re-analysis of the deposited data

Results flagged for a closer look

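Probe sets that carry no gene or several in the annotation stood outside the comparison. Of 9329 such probe sets tested, 1258 were called by limma in a fit of all probe sets, beside 4846 of the 16323 genes. Of the 1258, 48 were higher in the tumours by at least 1 log2 unit, with all 3 tumour arrays above every Sufu KO and wildtype array. The largest of these, probe set 10340787, differed by 2.84 and is not listed in the annotation used here, so what it measures is not known.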

How the results depend on the processing

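No called value changed sign under the alternatives tried. Without 1 array in turn, 1435 to 2288 genes were called higher and 2251 to 2834 lower, and 95 to 208 were higher and 142 to 275 lower by at least 1 log2 unit. With array weights estimated by limma, the counts rose to 3699, 4448, 196 and 277. The estimate of the weights stopped short of convergence, and the cause of the rise was not tested. The other alternatives (mutant arrays alone, filters, another probe set rule, quantile or median scaling, trended or robust variance) left at least 1754 higher and 2585 lower. Whether the replicate numbers pair the samples is not known, and with the replicate block 1877 genes were higher and 2749 lower. Over all alternatives and named genes 2795 values kept their call or stayed uncalled, 23 lost a call and 14 gained one. Many of these genes were named for large differences or small p-values in the same data. The tally therefore does not measure how well calls in general held. Of the list counts 1261 stayed within 1.5 times, or went only from none to 1 or back, and 69 did not. With a filter at the array median fewer loci were tested, and 13 between Meg3 and Dio3 were lower. The deposited values give no background level, so how far dim probe sets such as those of Gpr50 and the microRNA loci stood above it is unknown, and 3 arrays a group limit the precision of small differences.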

Other observations

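One family of probe sets, those annotated to Gm21158 together with related genes, set Sufu KO apart from both other groups. All 9 probe sets tested were called higher in the tumours by limma, by 3.22 to 3.66 log2 units. Their levels ran from 6.92 to 7.57 in Sufu KO, from 10.1 to 11.2 in the tumours and from 11.1 to 12.3 in wildtype. These probe sets share annotated genes, and 10504123 and 10504125 read the same on every array. Their calls are therefore not independent of each other. The labels give no strain, and strain and genotype cannot be told apart for this family.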
